A study of Arabidopsis thaliana with 625 samples.

Results

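FAMA cells were single cells of Arabidopsis thaliana selected on 1 measured value, a level of FAMA (AT3G24140) of at least 1 TPM, a unit of transcript abundance scaled for gene length and for the total of the cell. They were 72 of the 621 plate-sorted cells. The cells came from aerial tissue of seedlings 10 days after germination and were profiled with Smart-seq2, a plate method that reads full-length transcripts of 1 cell per well. In the TMMp line, which carries TMMp::TMM-YFP, the promoter of TOO MANY MOUTHS (TMM, a receptor-like protein found in cells that give rise to stomata) drives TMM fused to YFP, and 55 of 478 cells on 7 plates were FAMA cells. In the ATML1p line, which carries ATML1p::YFP-RCI2A, an epidermal promoter drives YFP fused to a small membrane protein, and 17 of 143 cells on 5 plates were FAMA cells. Each line had 2 pools, with 16 and 39 FAMA cells in the TMMp pools and 3 and 14 in the ATML1p pools. Every plate held cells of 1 line only, so line and plate cannot be told apart, and no source used here gives the gates of the sort, so shares of FAMA cells are shares of what was sorted. The sources did not say whether plates or pools came from separate plants, so p-values measure the spread between plates, which may be technical.

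Stomata are pores in the leaf epidermis between a pair of guard cells. In their lineage SPEECHLESS (SPCH) starts asymmetric divisions, MUTE commits a cell to become a guard mother cell and drives the cell cycle genes of its last division, and FAMA, with its partners ICE1 (SCREAM) and SCRM2, ends that division and specifies guard cell fate. SCAP1, a DOF factor, MYB60, ion channels, proton pumps and the myrosinase TGG1 belong to later guard cells, and TMM is strongest in young lineage cells.

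FAMA cells held more detected genes than the other cells, which touches every comparison below. The median number of detected genes, those with 1 TPM or more, was 4308 in FAMA cells against 2636 in other cells of the TMMp line, and 4851 against 2827 in the ATML1p line. The share of TPM from organelle genes had medians of 3.87% against 5.5% in the TMMp line and 3.53% against 7.23% in the ATML1p line. TPM keep no read depth, so depth itself is unknown. Markers of vasculature and trichomes were scarce in FAMA cells. Of 4 vasculature and 4 trichome genes, 1 TMMp FAMA cell held 1 vasculature gene, with a summed level of 63.2 TPM, 1 held trichome genes at 43.2 TPM, and all 8 genes were at 0 in the 17 ATML1p FAMA cells. Photosynthesis genes, which mesophyll cells express strongly and guard cells also express, were not scarce. A FAMA cell held a median of 11 of 16 such genes in the TMMp line, at a summed level between 564.7 and 11833.0 TPM with a median of 3185.1 TPM, against 7 genes and a median of 2167.2 TPM in other cells. In the ATML1p line it held a median of 9 genes, at 218.3 to 14186.2 TPM with a median of 1601.5 TPM, against 9 genes and 3627.4 TPM, and LHCB1.2 and RBCS2B were in no ATML1p FAMA cell. No FAMA cell had a summed photosynthesis level of 20000 TPM or more, against 5 of 423 other TMMp cells and 42 of 126 other ATML1p cells, called photosynthesis-high.

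The level of FAMA, which chose the cells, is given as a description. In the 55 TMMp cells it ranged between 1.76 and 2681.4 TPM with a median of 530.43 TPM, and 52 cells had at least 100 TPM. In the 17 ATML1p cells it ranged between 43.49 and 2011.65 TPM with a median of 108.76 TPM, and 10 cells had at least 100 TPM. The lowest members had 1.76, 2.22 and 8.37 TPM, all TMMp, and the next had 43.49 TPM. All 549 other cells were listed at 0, so no cell lay just outside the threshold. FAMA cells made up between 6.15% and 15.79% of the cells of a TMMp plate and between 5.88% and 18.18% of an ATML1p plate. Plate medians of FAMA ran between 258.9 and 855.81 TPM on TMMp plates. They were 92.0, 88.74, 56.54, 105.26 and 434.12 TPM on ATML1p plates ML1, ML2, ML1_5, ML1_6 and ML1_7, and 4 of these 5 lay below every TMMp plate. The same plate order is kept wherever 5 ATML1p values are listed.

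**Figure D1:**
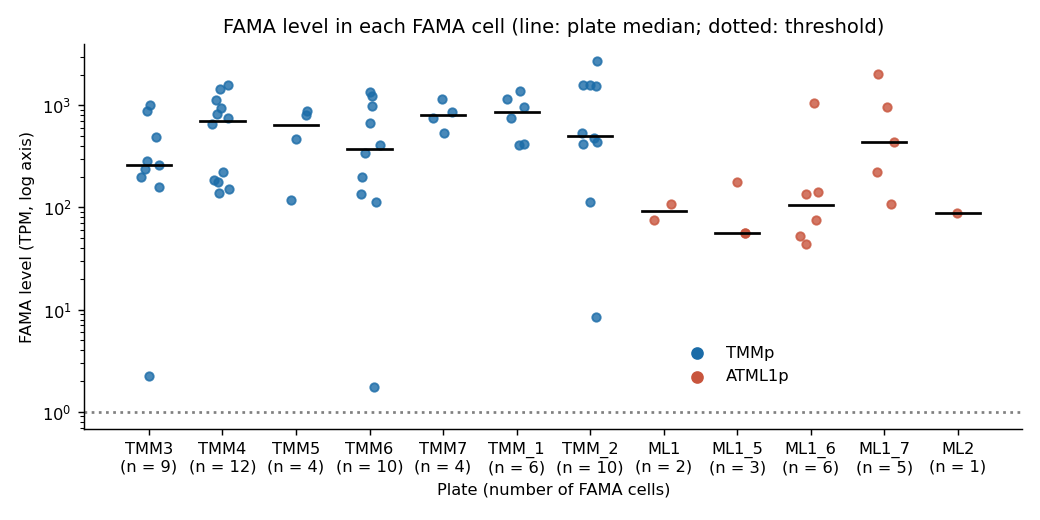
Level of FAMA (TPM, log axis) in each of the 72 FAMA cells by sort plate, 7 TMMp plates on the left and 5 ATML1p plates on the right. Bars are plate medians and the dotted line is the threshold of 1 TPM; 3 TMMp cells lie below 10 TPM and the ATML1p plate ML1_7 has the highest ATML1p median, 434.12 TPM.

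The first comparison asked how FAMA cells differed from the other cells of their own plate. For each plate the mean log2(TPM + 1) over other cells was taken from that over FAMA cells. These plate differences were tested for all 15423 genes detected in at least 20 cells. The log2 differences are thus on the log2(TPM + 1) scale, where the added 1 shrinks the change of low genes. A mean of logs also follows the share of cells with the gene. A difference can therefore be much larger than that of the mean TPM, and is not a fold change of TPM. In the TMMp line 4960 genes (32.2% of those tested) passed an adjusted p of 0.05, 4191 higher (27.2%) and 769 lower (4.99%). In the ATML1p line 2259 genes (14.6%) passed, 1721 higher (11.2%) and 538 lower (3.49%). The median over all genes was 0.37 in the TMMp line and 0.39 in the ATML1p line, and the split changed with how genes per cell were treated. Adjusted for genes per cell, 1749 genes were higher (11.3%) and 1460 lower (9.47%) in the TMMp line, 20.8% together, and 947 (6.14%) and 970 (6.29%) in the ATML1p line, 12.4% together. Quantile normalization gave 2446 and 2194, and 839 and 1323. On log2 of the mean TPM of a plate the split turned to 1081 higher and 2786 lower in the TMMp line, with a median over all genes of -0.36, and to 158 and 1321 in the ATML1p line, with a median of -0.48. On that scale ICE1, SCRM2, FLP, HDG2, SOL1, EPF1, TMM, YDA, CHX20, AT2G16630, CYCA2;3, CYCB1;1, KNOLLE, PDF1, GPAT4, LHCB1.1, RBCS1A and TCH2 did not pass in the TMMp line, nor SLAC1, AHA1, AHA5, STP1, MPK12, GPAT4 and GolS1 in the ATML1p line. The within-plate differences of the 2 lines differed for 507 genes (3.29%), 226 (1.47%) with the larger value in the TMMp line and 281 (1.82%) with the larger value in the ATML1p line. That count was 29 with the pool as the unit, and 20 and 0 without pool 2 of the ATML1p and of the TMMp line.

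Of 9 stomatal transcription factors tested, 5 were higher and RBR1, the retinoblastoma-related protein that FAMA binds, was lower. The list median was 0.96 against 0.37 over all genes, of which 27.2% were higher and 4.99% lower. With genes per cell adjusted for, 1 factor was higher and 3 were lower (list median -0.24). Quantile normalization gave 2 higher and 2 lower (list median -0.04). ICE1 was detected in 50 of 55 FAMA cells against 204 of 423 other cells. Its plate mean was 200.4 at the lowest, 237.2 at the median and 377.4 TPM at the highest in FAMA cells, against 96.1, 145.8 and 198.2 TPM in other cells. The plate ranges did not overlap, and the log2 difference was 3.41 ± 0.43 (SE, n = 7 plates; adjusted p 2.05e-05). SCRM2 (2.20, adjusted p 0.000915), HDG2, a homeodomain factor (1.97, adjusted p 0.00373), and FLP, the MYB factor that acts beside FAMA (0.96, adjusted p 0.0146), were also higher, and so was SOL1. These 4 did not pass once genes per cell were adjusted for, and SOL1 turned to -0.28. HDG2 and FLP did not pass without TMMp pool 1 (leave-out values between 1.54 and 2.99, and 0.65 and 1.72). RBR1 (-1.19, adjusted p 0.0177) did not pass without plate TMM_1, plate TMM4 or either pool (-1.51 to -0.96). MUTE was found in 1 of 55 FAMA cells against 34 of 423 other cells (-0.44, adjusted p 0.0983), and that cell had the lowest FAMA level, 1.76 TPM. SPCH was found in 8 against 69 (-0.32, adjusted p 0.506), so neither MUTE nor SPCH passed.

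Among 11 stomatal signals tested in the TMMp line, EPF1, TMM, SDD1 and YDA were higher and the receptor kinase ER was lower. The list median was 0.14 against 0.37 over all genes. With genes per cell adjusted for, 2 were higher and 6 lower (list median -0.76), where 11.3% of all genes were higher and 9.47% lower. Quantile normalization gave 3 higher and 6 lower (list median -0.41). EPF1, the peptide that enforces spacing and is made by guard mother cells, was detected in 21 of 55 FAMA cells against 29 of 423. Its plate mean was 12.3 at the lowest, 72.7 at the median and 105.4 TPM at the highest, against 8.51, 19.4 and 22.1 TPM. The ranges overlapped at the low end, and the difference of 2.02 ± 0.29 (SE, n = 7) had an adjusted p of 5.53e-05. SDD1, a subtilisin-like protease that limits stomatal number, differed by 2.64 ± 0.49 (adjusted p 0.00063). It was detected in 17 of 55 FAMA cells against 25 of 423, with plate means of 17.9, 624.6 and 1499 TPM (lowest, median, highest) against 1.47, 4.23 and 11.4 TPM, without overlap. ER was detected in 2 of 55 against 79 of 423 cells (-0.97, adjusted p 0.00732) and did not pass without TMMp pool 1 (leave-out values between -1.67 and -0.67). TMM, whose transgene and native transcripts cannot be told apart, was detected in 55 of 55 against 376 of 423 cells. Its difference of 2.21 (adjusted p 0.000126) was 0.24 (adjusted p 0.689) when genes per cell were adjusted for, and TMM did not pass without TMMp pool 2 (leave-out values between 2.02 and 2.42).

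ICE1 in the ATML1p line was the only one of these 9 factors to pass. It was detected in 16 of 17 FAMA cells against 30 of 126 other cells, at 37.0, 559.8, 466.8, 168.2 and 512.3 TPM on the 5 plates against 46.1, 19.5, 19.1, 47.8 and 14.8 TPM. FAMA cells were higher on 4 of 5 plates, and the difference was 6.01 ± 0.78 (SE, n = 5; adjusted p 0.000237), or 3.48 and past no threshold without pool 2. MUTE was in 0 of 17 FAMA cells, which allows a share of up to 17.6% by a limit of 3 cells (19.5% by the exact interval), against 3 of 126. SPCH was in 2 of 17 against 2 of 126 and EPF1 in 4 of 17 against 2 of 126 (1.44 ± 0.51, adjusted p 0.0682). None of the 11 signals passed in this line. Of all genes 11.2% were higher and 3.49% lower there, so 1 of 9 factors higher is near the share over all genes. The difference between lines did not pass for ICE1 (-2.60, adjusted p 0.115).

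**Figure D2:**
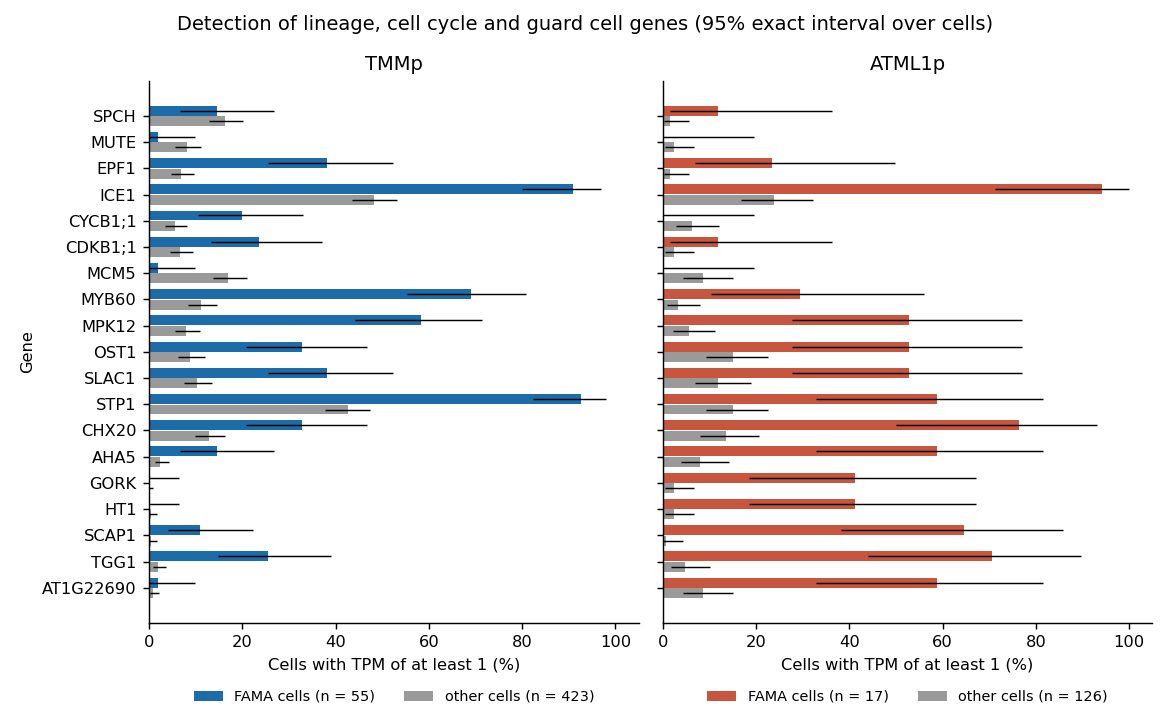
Share of cells (%) in which each of 19 lineage, cell cycle and guard cell genes reached a TPM of at least 1, FAMA cells above other cells for each gene, TMMp on the left (55 and 423 cells) and ATML1p on the right (17 and 126 cells). Whiskers are exact 95% binomial intervals over cells; ICE1 is the most widely detected gene in ATML1p FAMA cells, while SCAP1, GORK and HT1 are frequent in ATML1p and rare or at 0 in TMMp FAMA cells.

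The cell cycle genes of TMMp FAMA cells moved in opposite directions by phase. Of 9 S phase genes, 8 were lower and 0 higher, with a list median of -0.94 against 0.37 over all genes, and the same count was lower with genes per cell adjusted for. Of 8 genes of G2 and M phase, 7 were higher and 0 lower, with a list median of 1.2, and 5 were higher with that adjustment. Of all genes, 27.2% were higher and 4.99% lower, or 11.3% and 9.47% with genes per cell adjusted for. MCM7, a subunit of the replicative helicase, was detected in 1 of 55 FAMA cells against 96 of 423 other cells (-1.54 ± 0.28, adjusted p 0.000538). PCNA2, the sliding clamp of DNA polymerase, was detected in 7 against 149 cells (-1.98 ± 0.30, adjusted p 9.73e-05). Its plate means were 0, 3.93 and 60.6 TPM (lowest, median, highest) in FAMA cells against 58.1, 97.9 and 117.4 TPM in other cells, so 1 high plate reached the range of the other cells. MCM3 was listed at 0 in all 55 FAMA cells, against 56 of 423 other cells. A count of 0 of 55 allows a share of up to 5.45% by the limit of 3 cells (6.49% by the exact interval). PCNA1 (-1.0, adjusted p 0.028) and MCM2 (-0.73, adjusted p 0.00806) did not pass without either TMMp pool.

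CDKB2;1, a plant mitotic kinase, was detected in 11 of 55 FAMA cells against 8 of 423 other cells, with plate means of 0, 326.5 and 697.4 TPM (lowest, median, highest) against 0, 9.47 and 50.7 TPM (1.90 ± 0.42, adjusted p 0.00259). The Aurora kinases AUR1 (16 against 23 cells, 2.1 ± 0.40, adjusted p 0.000826) and AUR2 (12 against 12 cells, 1.37 ± 0.22, adjusted p 0.000213) were higher too. CDKB2;1 and AUR2 were in only 8 and 12 other TMMp cells. They may have been in enough cells for a test only through FAMA cells, so their p-values are read as a description. CYCB1;1 (11 against 23 cells, 1.03, adjusted p 0.00585) and KNOLLE, the syntaxin of the cell plate (11 against 21 cells, 1.01, adjusted p 0.0133), did not pass with genes per cell adjusted for, at 0.74 and 0.72, and KNOLLE not without plate TMM_2 or TMMp pool 1 (leave-out values between 0.69 and 1.77). Of 10 genes of the last symmetric division, CDKB1;1, a kinase that FLP is known to repress (1.39 ± 0.31, adjusted p 0.00242), CDKB1;2 (1.84, adjusted p 0.000429), CYCA2;2 (1.2, adjusted p 0.0019) and CYCA2;3 (2.00, adjusted p 0.00413) were higher and SMR1, a cell cycle inhibitor listed at 0 in TMMp FAMA cells, was lower. Of all genes 27.2% were higher in this line, or 11.3% with genes per cell adjusted for, where 3 of the 10 were higher. CYCA2;3 did not pass without TMMp pool 1 (1.46 to 3.27) and SMR1 not without most of the single plates or with genes per cell adjusted for. Of all genes in the ATML1p line 11.2% were higher and 3.49% lower. None of the genes of these 3 lists passed in that line, and CYCB1;1 was in 0 of 17 FAMA cells against 8 of 126. The difference between lines passed for none of them either, so the lines are not shown to differ in them.

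Several genes of later guard cells differed between the lines. Of the late factors, MYB60 was higher in TMMp FAMA cells, at 38 of 55 against 47 of 423 cells. Its plate means were 200.4, 386.0 and 750.7 TPM (lowest, median, highest) against 19.2, 38.1 and 56.9 TPM, without overlap, a difference of 4.98 ± 0.41 (adjusted p 2.98e-07) that stayed past the threshold under all alternatives run. It was the only one of 4 late factors to pass there, and SCAP1 the only one in the ATML1p line. Of all genes 27.2% were higher in the TMMp line and 11.2% in the ATML1p line. A count of 1 of 4 is therefore not read as a result about the list. In ATML1p FAMA cells MYB60 was in 5 of 17 against 4 of 126 cells, at 0, 0, 394.2, 29.3 and 27.0 TPM against 21.6, 0, 0, 101.7 and 0 TPM (1.93 ± 0.74, adjusted p 0.0885). The difference between lines was 3.05 and did not pass (adjusted p 0.0563). MYB61 was listed at 0 in all 621 cells.

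SCAP1 was detected in 6 of 55 TMMp FAMA cells against 2 of 423 other cells, with plate means of 0, 8.13 and 33.3 TPM against 0, 0 and 2.88 TPM (0.73 ± 0.28, adjusted p 0.056). Of the ATML1p cells, it was detected in 11 of 17 FAMA cells against 1 of 126 other cells, at 38.4, 52.6, 145.7, 85.7 and 16.5 TPM against 0, 0, 0, 0 and 2.46 TPM. FAMA cells were higher on all 5 plates, by 3.90 ± 0.51 (adjusted p 0.000237). The within-plate differences of the lines differed by -3.17 ± 0.58 (adjusted p 0.00943), a call that did not pass without plate ML1_6, ATML1p pool 2 or TMMp pool 2 (leave-out values between -4.13 and -2.59). SCAP1 was in fewer than 20 other cells, as were TGG1, AT1G22690 and AT2G39690 below. Such genes reached the filter of 20 cells only through FAMA cells, so their p-values are a description in every comparison. SCAP1 is known as a marker of guard cell maturation, and the potassium channel KAT1 was in 3 of 55 and 1 of 17 FAMA cells. TMMp FAMA cells thus held some guard cell genes widely, such as MYB60, and others rarely, so they are called by FAMA alone.

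Of 26 genes of guard cell transport and signalling, 19 were detected in enough cells to be tested. In TMMp FAMA cells 10 were higher and PHOT1, a blue light receptor, was lower, with a list median of 0.76 against 0.37 over all genes, and 8 were higher and 0 lower with genes per cell adjusted for. In ATML1p FAMA cells 8 were higher and the carbonic anhydrases CA1 and CA4 were lower, with a list median of 2.38 against 0.39 over all genes. The share of all genes called higher was 27.2% in the TMMp line, or 11.3% with genes per cell adjusted for, and 11.2% in the ATML1p line. SLAC1, CHX20, AHA1, AHA5, STP1, MPK12 and TGG1 were higher in both lines. SLAC1, the anion channel of stomatal closure, was detected in 21 of 55 against 43 of 423 cells of the TMMp line (1.65 ± 0.37, adjusted p 0.00256) and in 9 of 17 against 15 of 126 of the ATML1p line (2.96 ± 0.66, adjusted p 0.00733). AHA1, the main proton pump of guard cells, was detected in 48 of 55 against 144 of 423 cells (3.69 ± 0.45, adjusted p 1.28e-05) and in 16 of 17 against 55 of 126 (3.14 ± 0.81, adjusted p 0.0157). MPK12, a MAP kinase of CO2 and abscisic acid responses, was detected in 32 of 55 against 33 of 423 cells (3.63 ± 0.48, adjusted p 3.3e-05) and in 9 of 17 against 7 of 126 (3.36 ± 0.87, adjusted p 0.0167). STP1, a monosaccharide importer, was higher by 4.43 ± 0.58 in the TMMp line (adjusted p 2.78e-05). Its ATML1p difference of 3.69 (adjusted p 0.0257) came from pool 2, since both pool 1 plates were at 0 in FAMA cells and gave -1.47 by themselves, and it did not pass without photosynthesis-high cells. Among ATML1p fits, SLAC1, AHA1 and MPK12 did not pass without plate ML1_7, AHA1 also not without plate ML1_6 and MPK12 not without plate ML1_5 (SLAC1 between 2.15 and 3.46, AHA1 between 1.49 and 3.53, MPK12 between 1.75 and 4.24). SLAC1 did not pass in the TMMp line without pool 2 (1.43).

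CHX20, AHA5, TGG1 and AT1G22690 differed more from the other cells in the ATML1p line than in the TMMp line. CHX20, a cation exchanger of guard cell endomembranes, was detected in 18 of 55 TMMp FAMA cells against 54 of 423 other cells, with plate means of 0.345, 27.4 and 64.5 TPM against 6.93, 12.7 and 43.4 TPM. These ranges overlapped, and the difference was 1.1 ± 0.33 (adjusted p 0.0176; 0.70 and past no threshold with genes per cell adjusted for). It did not pass without plate TMM4, plate TMM6 or either TMMp pool (0.86 to 1.2). CHX20 in the ATML1p line was detected in 13 of 17 against 17 of 126 cells, at 83.5, 731.6, 147.4, 172.3 and 524.0 TPM against 30.1, 4.84, 6.01, 36.1 and 9.03 TPM, without overlap, a difference of 4.78 ± 0.60 (adjusted p 0.000189). The lines differed by -3.69 ± 0.68 (adjusted p 0.00943).

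TGG1 is a myrosinase abundant in guard cells. In the TMMp line it was detected in 14 of 55 FAMA cells against 8 of 423 other cells, with plate means of 107.2, 1182 and 4019 TPM against 0, 0.069 and 129.7 TPM. The ranges overlapped at 1 end, and the difference was 2.92 ± 0.37 (adjusted p 2.25e-05). Among ATML1p cells it was detected in 12 of 17 against 6 of 126 cells, at 26800.0, 24600.0, 2270.0, 20817 and 11002 TPM against 427.4, 10125, 0, 1022 and 100.7 TPM. FAMA cells were higher on every ATML1p plate, by 9.39 ± 0.67 (adjusted p 1.5e-06). The lines differed by -6.47 ± 0.77 (adjusted p 0.00118), and on log2 of the mean TPM by 2.76 in the opposite direction. Reads could be split between TGG1 and its close copy TGG2.

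AHA5, a less abundant proton pump, was detected in 8 of 55 TMMp FAMA cells against 10 of 423 (0.76 ± 0.24, adjusted p 0.0242) and in 10 of 17 ATML1p FAMA cells against 10 of 126. Its ATML1p plate means were 6.85, 13.5, 111.1, 111.4 and 215.9 TPM against 32.8, 2.02, 0, 4.51 and 3.07 TPM, higher in FAMA cells on 4 of 5 plates (3.55 ± 0.44, adjusted p 0.000179; difference between lines -2.80 ± 0.50, adjusted p 0.00856). AT1G22690, a member of a gibberellin-regulated family, was detected in 1 of 55 against 3 of 423 TMMp cells and in 10 of 17 against 11 of 126 ATML1p cells. Its ATML1p plate means spread widely, at 54950.0, 3530.0, 18.23, 2912 and 31.4 TPM against 151.0, 1405, 0, 8.78 and 1.28 TPM (5.51 ± 0.95, adjusted p 0.00154; difference between lines -5.48 ± 1.09, adjusted p 0.0143). The 2 FAMA cells of plate ML1 had AT1G22690 at 2900.0 and 107000.0 TPM. The cell with 107000.0 TPM had 1286 genes detected, the fewest of any FAMA cell, and TGG1 at 41000.0 TPM. The differences between lines of CHX20, AHA5, TGG1 and AT1G22690 did not pass without TMMp pool 2 (leave-out values between -4.19 and -3.39, -3.19 and -1.11, -10.53 and -5.52, and -11.98 and -3.97), nor, apart from TGG1, with the pool as the unit. CHX20 and AHA5 also did not pass without ATML1p pool 2, nor AHA5 and AT1G22690 without plate ML1_6. The TMMp difference of AHA5 did not pass without most of the single plates (0.66 to 0.95). GORK, the outward potassium channel, and HT1, a kinase of the CO2 response, were in too few cells to be tested. Each was in 7 of 17 ATML1p FAMA cells against 3 of 126 other cells and listed at 0 in all 55 TMMp FAMA cells.

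**Figure D3:**
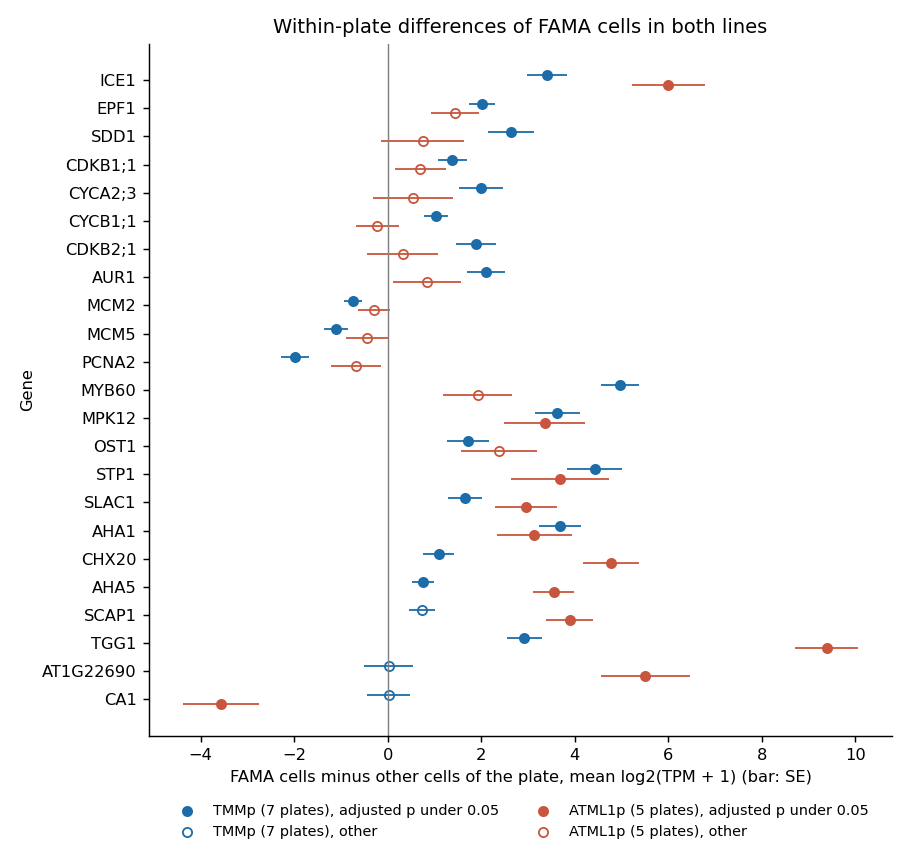
Within-plate difference between FAMA cells and other cells in mean log2(TPM + 1) for 23 genes, TMMp above ATML1p for each gene; filled points passed an adjusted p of 0.05 and bars are standard errors over 7 and 5 plates. CHX20, AHA5, SCAP1, TGG1 and AT1G22690 lie further right in ATML1p, while S phase genes lie left of 0 and CDKB2;1 and AUR1 right of 0 with filled points in TMMp only.

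Of 5 guard cell wall genes tested, 3 were higher in each line, with list medians of 1.21 and 1.44. With genes per cell adjusted for, 2 were higher in each line, and without photosynthesis-high cells AT2G16630 alone passed in the ATML1p line. For this list and the next, the share of all genes called higher was 27.2% in the TMMp line and 11.2% in the ATML1p line. It was 11.3% and 6.14% with genes per cell adjusted for, and 8.88% in the ATML1p line without photosynthesis-high cells. AT2G16630 was detected in 31 of 55 against 91 of 423 TMMp cells (2.50 ± 0.49, adjusted p 0.000985; 1.36 with genes per cell adjusted for, which did not pass) and in 13 of 17 against 11 of 126 ATML1p cells. In ATML1p FAMA cells it stood at 434.1, 96.6, 1100.4, 173.2 and 30.5 TPM against 16.5, 15.6, 0, 24.9 and 5.86 TPM, without overlap (5.23 ± 0.89, adjusted p 0.0014). AT2G04570 was detected in 48 of 55 against 58 of 423 TMMp cells (6.58 ± 0.53, adjusted p 2.59e-07). Its ATML1p difference of 3.19 (adjusted p 0.0342) rested on pool 2, and pool 1 alone gave 0. AT1G23200 was in 6 of 17 ATML1p FAMA cells against 1 of 126 and listed at 0 in all TMMp cells. Of 7 epidermal and cuticle genes, 5 were higher and PDF1 lower in the TMMp line (list median 2.06) and 3 were higher in the ATML1p line (list median 1.96), or 1 in each line with genes per cell adjusted for and 1, GPAT4, in the ATML1p line without photosynthesis-high cells. GPAT4, an enzyme of cutin synthesis, was higher by 3.05 ± 0.35 in the TMMp line (adjusted p 7.69e-06) and by 3.06 ± 0.63 in the ATML1p line (adjusted p 0.00453). PDF1, a marker of the outermost cell layer, was found in TMMp FAMA cells in 23 of 55 against 255 of 423 cells (-1.51 ± 0.43, adjusted p 0.0125; past no threshold without plate TMM_2 or without either pool, with leave-out values between -2.14 and -1.26).

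Photosynthesis genes went in opposite directions in the 2 lines. Of 16 tested, 10 were higher and 0 lower in TMMp FAMA cells (list median 1.61) and 0 were higher and 9 lower in ATML1p FAMA cells (list median -2.56). Of all genes, 27.2% were higher and 4.99% lower in the TMMp line, and 11.2% and 3.49% in the ATML1p line. LHCB1.1, a light-harvesting protein with near-identical copies, was detected in 37 of 55 against 95 of 423 TMMp cells (3.17 ± 0.42, adjusted p 3.42e-05). Among ATML1p cells it was in 3 of 17 against 58 of 126 cells, at 0, 0, 32.8, 118.3 and 0 TPM against 2860, 459.6, 4097, 3171 and 915.5 TPM (-3.66 ± 0.76, adjusted p 0.00489). With genes per cell adjusted for, 1 was higher and 1 lower in the TMMp line. With the 42 and 5 photosynthesis-high cells left out of the other cells, 0 were lower and 2, LHCB1.3 and LHCA3, higher in the ATML1p line, and 11 were higher in the TMMp line. Over all genes these fits called 8.88% higher and 1.86% lower in the ATML1p line and 27.3% and 5.04% in the TMMp line. The difference between lines then passed for 0 of 16 (0.35% of all genes with the larger value in the TMMp line and 0.798% in the ATML1p line), against 9 of 16 with all cells. CA1, a carbonic anhydrase, was lower in ATML1p FAMA cells (3 of 17 against 63 of 126 cells, -3.56 ± 0.81, adjusted p 0.00837) and also did not pass without those cells. SCAP1, CHX20, AHA5, AT1G22690 and TGG1 still differed between lines without those cells, by -3.08, -3.70, -2.75, -5.43 and -6.30 (adjusted p between 0.00155 and 0.0227). For SCAP1, AT1G22690 and TGG1, which reached the filter only through FAMA cells, these p-values are a description. Of 4 genes that respond to sorting or wounding, TCH2, a calmodulin-like gene (3.18 ± 0.51, adjusted p 0.000172), and HSP18.2, a heat shock gene (1.75 ± 0.39, adjusted p 0.00247), were higher and JAZ1, a jasmonate repressor, was lower (-2.67 ± 0.55, adjusted p 0.00142) in the TMMp line. TCH2 and HSP18.2 did not pass without TMMp pool 2 (leave-out values between 2.99 and 3.35, and 1.48 and 2.13). LOX2, a lipoxygenase of leaves, was listed at 0 in all 17 ATML1p FAMA cells against 18 of 126 other cells (-0.98 ± 0.21, adjusted p 0.00575), and did not pass without photosynthesis-high cells (-0.25, adjusted p 0.447). The differences between lines of TCH2 (4.07, adjusted p 0.042) and LOX2 (0.96, adjusted p 0.0362) did not pass without those cells either, at 3.81 (adjusted p 0.0803) and 0.25 (adjusted p 0.645). Neither passed with the pool as the unit or when most of the single plates or pools were left out (TCH2 2.82 to 5.12, LOX2 0.83 to 1.26).

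Outside the lists, DIR1, a lipid transfer protein of systemic resistance, was detected in 49 of 55 TMMp FAMA cells against 26 of 423 other cells, with plate means of 373, 565 and 850 TPM (lowest, median, highest) against 3.98, 18.1 and 46.7 TPM (7.32 ± 0.47, adjusted p 5.29e-08). Among ATML1p cells it was in 15 of 17 against 18 of 126 cells, at 2817, 0, 754.4, 508.8 and 902.9 TPM against 28.9, 14.2, 40.2, 31.3 and 32.0 TPM (7.16 ± 0.86, adjusted p 0.00014). The cell of plate ML2 lacked it, and FAMA cells were higher on the other 4 plates. The cytosolic malate dehydrogenase c-NAD-MDH2 was in 53 of 55 against 98 of 423 TMMp cells (6.78 ± 0.34, adjusted p 4.43e-09) and in 17 of 17 against 20 of 126 ATML1p cells (7.13 ± 0.61, adjusted p 1.17e-05). Its plate means in ATML1p FAMA cells, 797.8, 82.0, 292.7, 331.5 and 532.0 TPM, all exceeded those of the other cells, 60.7, 10.3, 1.51, 49.8 and 58.3 TPM. GolS1, a galactinol synthase, was in 47 of 55 against 92 of 423 TMMp cells (7.24 ± 0.55, adjusted p 1.27e-07) and in 15 of 17 against 26 of 126 ATML1p cells (6.95 ± 0.99, adjusted p 0.000426). UGE3, a UDP-glucose epimerase, had the largest TMMp difference among higher genes, at 51 of 55 against 75 of 423 cells and plate means of 923, 1394 and 2412 TPM against 68.9, 133.9 and 145.3 TPM (7.81 ± 0.65, adjusted p 3.04e-07; ATML1p 5.76, adjusted p 0.00428). AT1G07847 came next in size, in 54 of 55 FAMA cells against 166 of 423 other cells (7.66). It is annotated as an antisense RNA within AT1G52910, which was in 54 against 169 cells (6.87), and reads of this pair may not be told apart. GH9B1, an endoglucanase (7.23), AT2G39690 (7.11), AT3G24670 (6.92, 51 of 55 against 96 of 423 cells) and the peptidyl-prolyl isomerase FKBP15-1 (6.89) were also among the 10 highest. All 10 of these TMMp differences stayed past the threshold under every alternative run. AT2G39400 (-5.95), AR781 (-5.75), AT5G55180 (-5.72) and AT4G39670 (-5.68), each in 7 to 14 of 55 FAMA cells against 275 to 304 of 423 other cells, were lower in TMMp FAMA cells under every alternative too.

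TI2, a trypsin inhibitor, had the largest difference of the ATML1p line among genes outside the lists. It was in 15 of 17 FAMA cells against 12 of 126 other cells, at 1810.3, 2703, 1408, 509.4 and 1814 TPM against 51.0, 155.3, 9.54, 6.29 and 4.78 TPM, without overlap (8.34 ± 0.92, adjusted p 0.000109; TMMp 4.19, adjusted p 1.4e-05). The other higher genes among the 10 highest of this line were AT1G07400 (6.77, adjusted p 0.000135), AT1G53060 (6.69, adjusted p 0.000237), AT3G47295 (6.48, adjusted p 0.000109), AT4G02940 (6.42, adjusted p 0.000237) and AT5G48480 (6.38, adjusted p 9.86e-05), in 14 to 17 of 17 FAMA cells against 6 to 42 of 126 other cells. AT1G07135 (-6.48, adjusted p 0.000135) and AT2G38870 (-6.20, adjusted p 0.00111) were lower there, in 6 against 114 and in 4 against 93 cells.

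AOC1 and LOX3, enzymes of jasmonate synthesis, were lower in FAMA cells of both lines. AOC1, an allene oxide cyclase whose reads can be split with AOC2, was in 17 of 55 against 312 of 423 TMMp cells (-5.67 ± 0.51, adjusted p 6.23e-07). Among ATML1p cells it was in 4 of 17 against 92 of 126 cells, at 7.65, 571.0, 61.2, 0 and 35.7 TPM against 1833, 1832, 3159, 2372 and 3021 TPM (-6.11 ± 0.92, adjusted p 0.000605). LOX3, a lipoxygenase, was lower by -5.99 ± 0.93 in the ATML1p line (adjusted p 0.000739) and -3.75 in the TMMp line (adjusted p 4.33e-05). TIFY7, a JAZ-type repressor of jasmonate responses, was in 11 of 55 against 327 of 423 TMMp cells (-6.04 ± 0.42, adjusted p 6.86e-08), and its ATML1p difference of -2.13 did not pass (adjusted p 0.0675). NADP-ME2, a malic enzyme, was in 7 of 17 against 109 of 126 ATML1p cells, at 57.3, 86.4, 17.7, 68.0 and 73.8 TPM against 2067, 3416, 4008, 3088 and 3543 TPM (-5.97 ± 0.72, adjusted p 0.00014; TMMp -3.48, adjusted p 7.21e-06). BCB, a blue copper-binding protein, was lower by -6.05 in the TMMp line (adjusted p 3.04e-07) and -4.11 in the ATML1p line (adjusted p 0.00678). Leaving out ATML1p pool 2 left 3 FAMA cells, 1 of them the cell with 1286 detected genes. In that fit 32 genes passed in the ATML1p line, and of the ATML1p genes named so far only TGG1 and AT1G22690 were among them. Both reached the filter only through FAMA cells, so their passing is a description.

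The second comparison set FAMA cells of the TMMp line against FAMA cells of the ATML1p line. A total of 318 genes (2.06%) passed, 86 higher in TMMp FAMA cells (0.558%) and 232 lower (1.5%), with a median over all genes of 0. With genes per cell adjusted for the split was 219 and 308, with quantile normalization 344 and 399, and on log2 of the mean TPM 117 and 72. With the pool as the unit 0 genes passed in limma, 1856 had an unadjusted p under 0.05 and the lowest adjusted p was 0.38. No other tool was run, and leaving out single plates or pools gave between 32 and 508 genes.

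TMM was higher in TMMp FAMA cells (55 of 55 against 4 of 17 cells, 8.89 ± 0.59, adjusted p 1.88e-05), in the line that carries the TMM transgene. Ferritins came next in size. FER1, an iron store of plastids, was in 49 of 55 against 3 of 17 cells. Its TMMp plate means were 414, 722 and 1525 TPM (lowest, median, highest) against 0, 0, 28.6, 128.7 and 0 TPM on the ATML1p plates, without overlap (6.95 ± 0.97, adjusted p 0.00621). FER3 was in 48 of 55 against 3 of 17 cells (6.66 ± 0.92, adjusted p 0.00597). RBCS2B, a Rubisco small subunit with near-identical copies, was in 53 of 55 TMMp FAMA cells, with plate means of 117.8, 130.5 and 178.2 TPM, and listed at 0 in all 17 ATML1p FAMA cells (adjusted p 1.88e-05). The calreticulin CRT1a (54 of 55 against 7 of 17 cells, 5.65 ± 0.63, adjusted p 0.00371), the factor MYB96 (45 of 55 against 3 of 17, 5.96 ± 0.90, adjusted p 0.0103) and the calmodulin-like TCH2 (49 of 55 against 6 of 17, 5.29 ± 1.08, adjusted p 0.0295) were higher too. TCH2 did not pass without plate ML1_6, plate ML1_7, plate TMM_2 or others (4.10 to 6.18). FER3, CRT1a and MYB96 did not pass without ATML1p pool 2 (leave-out values between 6.09 and 7.94, 5.39 and 6.84, and 4.14 and 7.01), and FER1 also not without TMMp pool 2 (6.47 to 8.07). AT1G11850 was in 53 of 55 against 6 of 17 cells (5.44, adjusted p 0.00455). The overlapping pair AT1G07847 (6.15, adjusted p 0.0337) and AT1G52910 (5.53, adjusted p 0.0332), each in 54 of 55 against 9 of 17 cells, did not pass without most of the single plates or pools (4.90 to 11.78 and 4.43 to 10.54).

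UGT73B2, a glucosyltransferase, was in 4 of 55 TMMp FAMA cells against 11 of 17 ATML1p FAMA cells and stood at 632.6, 2765, 1612, 796.4 and 571.4 TPM on the ATML1p plates (-6.15 ± 0.72, adjusted p 0.00383). GSTU24, a glutathione transferase, was in 8 of 55 against 12 of 17 cells (-5.69 ± 0.76, adjusted p 0.00537). AT5G14780, a formate dehydrogenase, was in 9 of 55 against 12 of 17 (-5.56 ± 0.80, adjusted p 0.00806). MSS1, a hexose transporter, was listed at 0 in all 55 TMMp FAMA cells and was in 10 of 17 ATML1p FAMA cells, at 667.0, 1129, 0, 900.1 and 1291 TPM (adjusted p 0.0155). It did not pass without plate ML1_6, plate ML1_7 or either TMMp pool. AT2G25450 was listed at 0 in all 55 TMMp FAMA cells and was in 10 of 17 ATML1p FAMA cells (adjusted p 0.0231), and did not pass in the same 4 fits. The others among the 10 lowest were AT4G08935 (-5.90, adjusted p 0.0137), AT4G02940 (-5.49, adjusted p 0.0143), AT5G43150 (-5.42, adjusted p 0.00445) and AT1G19020 (-5.25, adjusted p 0.0137), none of which passed without ATML1p pool 2 (all leave-out values between -8.62 and -4.51). Among the genes of the lists, JAZ1 was in 14 of 55 against 12 of 17 cells and lower (-4.59 ± 1.01, adjusted p 0.0394), and did not pass without most of the single plates or pools (-5.24 to -4.03). Of the guard cell genes, SCAP1 (-3.17 ± 0.72, adjusted p 0.0453), CHX20 (-3.82 ± 0.64, adjusted p 0.0141), AHA5 (-3.11 ± 0.59, adjusted p 0.0231) and TGG1 (-6.87 ± 0.91, adjusted p 0.00515) were lower, and CA4 was higher (3.74, adjusted p 0.0261). Of the fits that left out 1 plate or pool, SCAP1 passed only in that without plate ML1_7 (all between -4.07 and -2.65), and CHX20, AHA5 and CA4 did not without plate ML1_6 (CHX20 -4.11 to -3.50, AHA5 -3.42 to -1.71, CA4 3.29 to 5.80). None of the cell cycle genes passed, and 3 of 16 photosynthesis genes, LHCB1.1, RBCS1A and RBCS2B, were higher. GPAT4 (1.15, adjusted p 0.483) and AT2G29065 (-0.18, adjusted p 0.969) were examples of genes without a call.

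Within each line the FAMA cells were not uniform. A set of 7 late guard cell genes (SCAP1, TGG1, GORK, HT1, AHA5, CHX20 and AT1G22690) was put together after their values were seen. All 7 were held by a larger share of ATML1p than of TMMp FAMA cells. Guard cell genes that went the other way were left out, such as MYB60 (38 of 55 TMMp against 5 of 17 ATML1p FAMA cells) and STP1 (51 of 55 against 10 of 17). The counts of the set and their contrast between lines follow from that choice and are a description. In the TMMp line 12 of 55 FAMA cells held 2 or more of the 7, against 2 of 423 other cells. Of the 55, 25 held none and 18 held 1, and the most held by a cell was 4. Of the ATML1p FAMA cells 13 of 17 held 2 or more, against 8 of 126, and 8 cells held 6 or all 7. The median level of FAMA was 332.0 TPM in the 12 TMMp cells against 746.2 TPM in the other 43, and 108.5 TPM in the 13 ATML1p cells against 1007.5 TPM in the other 4. The 11 ATML1p cells with SCAP1 had FAMA between 43.5 and 434.1 TPM with a median of 88.7 TPM, against 536.8 TPM in the 6 without, and 10 of the 11 also held TGG1.

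Mitotic genes were held mostly by other FAMA cells. Of the TMMp cells 16 of 55 FAMA cells (29.09%) held 2 or more of the G2 and M phase genes, against 11 of 423 other cells. These 16 had a median FAMA of 903.4 TPM against 472.0 TPM in the other 39, and more genes detected (median 5715 against 3791). Of the 16, 15 also held MYB60, and 1 held 2 or more late genes. S phase genes ran the other way, with 2 or more in 3 of 55 FAMA cells against 147 of 423 other cells. Of the ATML1p cells 2 of 17 FAMA cells held 2 or more mitotic genes. Both held SPCH and EPF1, and neither held 2 late genes.

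**Figure D4:**
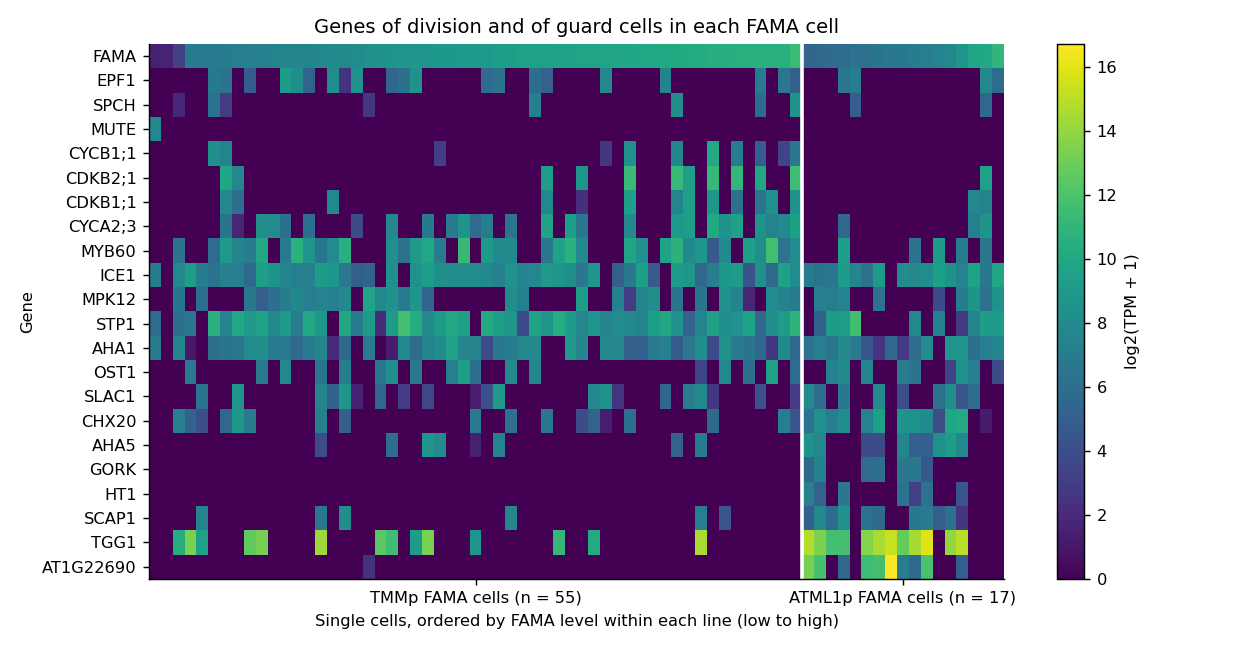
Level, as log2(TPM + 1), of lineage, mitotic and guard cell genes in each of the 72 FAMA cells, TMMp cells left of ATML1p cells and ordered by FAMA within a line. SCAP1, TGG1 and CHX20 are filled in 11, 12 and 13 of 17 ATML1p columns, and CDKB2;1 is filled mainly in TMMp columns with high FAMA.

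Within the TMMp line FAMA cells were set against cells of nearby steps. The first set was 46 cells with MUTE or EPF1, genes of guard mother cells, and no FAMA. Of 15420 genes 1593 (10.3%) differed, 933 higher (6.05%) and 660 lower (4.28%), with a median over all genes of 0.05. With genes per cell adjusted for, the split was 824 higher and 812 lower. Of 9 S phase genes 7 were lower (list median -1.82) and of 8 mitotic genes 6 were higher (list median 1.49). PCNA2 was in 7 of 55 FAMA cells against 31 of 46 MUTE or EPF1 cells, with plate means of 0, 3.93 and 60.6 TPM against 25.0, 157 and 301 TPM (-4.54 ± 0.80, adjusted p 0.002). MCM7 was in 1 of 55 against 25 of 46 cells (-3.73 ± 0.64, adjusted p 0.00166). CDKB2;1 was in 11 of 55 FAMA cells and listed at 0 in the 46 cells (adjusted p 0.0081), and so was AUR2, at 12 of 55 (adjusted p 0.000156). Both p-values are again read as a description. CYCD7;1, a cyclin that MUTE and FAMA regulate, was in 7 of 55 against 16 of 46 cells (-1.64, adjusted p 0.0345; past no threshold without most of the single plates, -2.03 to -1.30).

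In the same comparison PDF1 was in 23 of 55 FAMA cells against 45 of 46 MUTE or EPF1 cells (-6.38 ± 0.79, adjusted p 0.000147), a call not kept on log2 of the mean TPM (-1.67). POLAR, a polarity protein of the asymmetric divisions, was in 10 of 55 against 33 of 46 cells (-4.04 ± 0.81, adjusted p 0.00436). GH9B1 (46 of 55 against 2 of 46 cells, 7.47 ± 0.62, adjusted p 4.81e-06), GolS1 (47 of 55 against 13 of 46, 7.15 ± 0.83, adjusted p 9.44e-05) and DIR1 (49 of 55 against 9 of 46, 6.57, adjusted p 1.42e-05) were higher. SDD1 (2.32 ± 0.50, adjusted p 0.00753) and TGG1 were higher, and SCAP1 was too, by 0.64 (adjusted p 0.00546; not past the threshold with quantile normalization). Lower genes included FIB1, a fibrillarin of the nucleolus (20 of 55 against 40 of 46 cells, -5.49, adjusted p 0.000705), the histone variant gene HTA8 (4 of 55 against 30 of 46, -5.20, adjusted p 0.000623), the arginine methyltransferase PRMT10 (7 of 55 against 36 of 46, -5.13, adjusted p 0.000135) and WRKY18 (13 of 55 against 34 of 46, -5.32, adjusted p 0.000156). The early light-induced gene ELIP1 (46 of 55 against 12 of 46, 5.63, adjusted p 0.000117) was higher and AGP2, an arabinogalactan protein (3 of 55 against 28 of 46, -5.32, adjusted p 0.00158), was lower. None of 8 other stomatal transcription factors tested passed.

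The second set was 29 TMMp cells with MYB60 but without FAMA, MUTE or EPF1. Of 15420 genes 2303 (14.9%) differed, 1901 higher (12.3%) and 402 lower (2.61%), with a median over all genes of 0.26. With genes per cell adjusted for, 904 were higher (5.86%) and 777 lower (5.04%), 10.9% together. Of 19 transport and signalling genes 5 were higher in FAMA cells, among them MPK12 (3.31, adjusted p 0.00227), TGG1 (2.46, adjusted p 0.00634) and AHA1 (3.05, adjusted p 0.0079). SLAH3 (-0.91, adjusted p 0.0292) and PHOT1 (-0.98, adjusted p 0.0251) were lower, and 12 were not called. Of 10 stomatal signals SDD1 was higher (3.32 ± 0.51, adjusted p 0.00065) and ER lower (-2.06, adjusted p 0.0171). Of 8 stomatal transcription factors RBR1 alone passed, and it was lower (-2.43, adjusted p 0.0202). AHA1 did not pass without plate TMM_2 (leave-out values between 2.46 and 3.45). TIFY7 was in 11 of 55 FAMA cells against 26 of 29 MYB60 cells (-7.21 ± 0.63, adjusted p 7.01e-06) and the zinc finger factor STZ in 9 of 55 against 22 of 29 (-5.39, adjusted p 0.00048). AT5G07870 was higher (43 of 55 against 2 of 29, 6.72, adjusted p 7.01e-06), and AT4G17245 (-6.87, adjusted p 2.91e-05), AT2G39400 (-5.18, adjusted p 0.0015) and AT1G66760 (-4.92, adjusted p 0.00123) were lower. Of 8 mitotic genes 7 were higher, 1 with genes per cell adjusted for, and of 9 S phase genes MCM7 and PCNA2 were lower.

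The genes detected most nearly in the same cells as FAMA were found by the Jaccard index over all 621 cells, the cells with both genes divided by the cells with either. This is a description, since FAMA chose the cells. AT2G39690 had the highest index, 0.6049, with 49 of its 58 cells being FAMA cells. ROPGEF4, an activator of ROP GTPases, followed at 0.5789 with 44 of 48 cells. DIR1 (0.5517, 64 of 108 cells), AT5G66440 (0.5412), AT2G15830 (0.5263), AT2G29065 (0.5152), AT5G46230 (0.5) and the kinase NEK5 (0.4902) came next. ROPGEF4 was in 38 of 55 TMMp and 6 of 17 ATML1p FAMA cells, against 4 of 423 and 0 of 126 other cells. AT2G29065 was in 38 of 55 and 13 of 17 FAMA cells, against 19 of 423 and 8 of 126, and its within-plate differences were near each other, at 4.96 ± 0.53 and 5.13 ± 0.95 (difference between lines -0.17 ± 1.09, adjusted p 0.952).

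The sorter recorded 7 scatter and fluorescence channels for each cell, deposited on a log2 scale, which the choice of FAMA cells did not use. Forward scatter (FSC) and side scatter (SSC) read cell size and granularity, and FITC reads YFP. The FSC area on ATML1p plates was 17.082 ± 0.277 in FAMA cells against 16.59 ± 0.255 in other cells (SD over 5 plates), higher on 5 of 5 plates, by 0.491. The SSC height was lower on 5 of 5 plates, by -0.323. The exact two-sided sign-flip test can go no lower than 0.0625 with 5 plates, the value it gave for both. In the TMMp line the FSC area was 16.622 ± 0.142 against 16.609 ± 0.052 (SD over 7 plates), and reporter brightness was 10.713 ± 0.219 against 11.002 ± 0.067. Brightness was lower in FAMA cells on 7 of 7 plates, by -0.289 (exact sign-flip p 0.0156, the smallest possible, and 0.175 when adjusted over 14 tests).

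The lines differed in these effects in 4 of 7 channels, the area and height of FSC and of SSC. The within-plate difference in FSC area was 0.013 in the TMMp line against 0.491 in the ATML1p line (exact permutation test over 792 splits of plates, adjusted p 0.0177), and that in SSC area was 0.05 against -0.327 (adjusted p 0.042). Plates counted equally in this test, also plate ML2 with 1 FAMA cell. Without that plate the ATML1p difference in FSC area was 0.28. The within-plate differences in FITC area, -0.289 against 0.001, were not shown to differ (adjusted p 0.338). TMMp FAMA cells themselves had a lower FSC area than ATML1p FAMA cells, by -0.459, and a lower SSC area, by -0.388 (exact permutation test, adjusted p 0.00221 and 0.00707). The FITC area, which reads a different fusion protein in each line, was lower by -2.007 (adjusted p 0.00221).

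**Figure D5:**
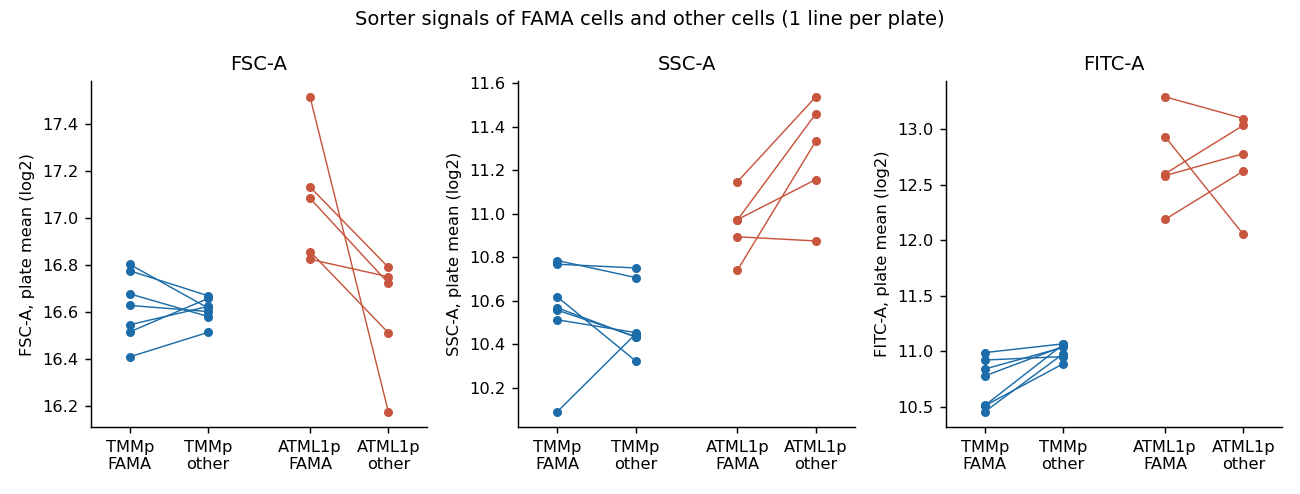
Mean log2 sorter signal of FAMA cells and other cells, 1 line per plate and 1 panel each for FSC area, SSC area and FITC area. In FSC area the 5 ATML1p lines are higher at the FAMA end while the 7 TMMp lines are near level, and in FITC area the 7 TMMp lines are lower at the FAMA end.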

How the data were processed

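The authors deposited expression as TPM of each gene in each cell, per the file headers. They also deposited log2 values of 7 sorter channels, each the log2 median signal of a cell. The labels' protocols named Smart-seq2 chemistry and a miniaturized Nextera XT protocol, and Cell Ranger and TAIR10 appear in the submitters' processing notes. The program that turned these reads into TPM is not given in the sources used here. TPM keep no depth, so precision per gene is unknown, and an exact 0 may be a failed capture. Pools came from the labels and plates from the cell names. The series' 4 samples from the 10X method were not used here. No cell was removed and no doublet caller was run.

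For each plate and class of cells the mean of log2(TPM + 1) was computed for genes with 1 TPM or more in at least 20 cells. limma 3.58.1 in R 4.3.3 (eBayes with trend) tested plate differences or means, weighted by cell numbers, with the pool as a block whose correlation was set to 0 where its estimate was negative. P-values were adjusted by Benjamini-Hochberg over all genes, at a threshold of 0.05. The fits were also run on simulated data. These had independent normal noise between plates, with no pool effect and no added zeros, so they cannot show how the fits handle either. FAMA was left out of every test, and MUTE, EPF1 and MYB60 out of those of cells chosen by them. Sorter signals were compared with exact sign-flip tests within plates and exact permutation tests between lines, both two-sided.

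FAMA cells, the 13 gene lists (129 genes) and the tests were chosen with earlier results of these data known. The text counted all tested genes of the lists, naming some of them, and named, of genes past the threshold and in at least 5 cells of the higher group, those among the 10 highest and 6 lowest differences within plates, the 10 highest and 10 lowest between lines and the 6 highest and 6 lowest against nearby cells. Symbols came from RefSeq's TAIR10.1 annotation, which held 32548 of 32833 genes. Intervals of shares are exact 95% binomial intervals over cells, a count of 0 allows up to 3 cells of the total, and both cover the counting of cells only. Alternatives were log2 of the mean TPM, pseudocounts of 0.1 and 10, FAMA thresholds of 5 and 10 TPM, other filters, no weights, quantile normalization, adjustment for genes per cell, the pool as unit, photosynthesis-high cells left out, and leaving out each plate or pool.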

Additional observations from a re-analysis of the deposited data

Results flagged for a closer look

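Of 20 groups of plates examined for a plate far from the others, 5 were flagged, where chance flags about 1 in 20. The median FAMA level of plate ML1_7, 434.12 TPM, stood apart from the other 4 ATML1p plates. The within-plate differences of plate ML2, which held 1 FAMA cell, stood apart at 1.337 (log2) in FSC area and 1.308 in FSC height. Plate TMM3 stood apart among the TMMp plates at -0.357 in SSC area and -0.343 in SSC height.

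The effect of FAMA cells within plates differed between the lines, by a test of the difference itself, in 4 sorter channels and 17 genes of the lists. The FSC area differed by 0.013 in the TMMp line against 0.491 in the ATML1p line and the FSC height by 0.039 against 0.518. The SSC area differed by 0.05 in the TMMp line against -0.327 in the ATML1p line and the SSC height by 0.064 against -0.323. Without plate ML2 the ATML1p difference in FSC area was 0.28, the lowest of the fits that left out a plate.

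For the genes the values are the TMMp effect minus the ATML1p effect, on the log2(TPM + 1) scale. Guard cell genes gave -3.17 for SCAP1, -3.69 for CHX20, -2.8 for AHA5, -5.48 for AT1G22690 and -6.47 for TGG1. SCAP1, AT1G22690 and TGG1 reached the filter only through FAMA cells, so their tests are a description. Photosynthesis genes gave 6.83 for LHCB1.1, 3.8 for LHCB1.2, 4.56 for LHCB2.1, 3.87 for LHCA1, 5.62 for RBCS1A, 3.45 for RBCS2B, 4.89 for RBCS3B, 4.71 for RCA and 3.48 for PSAF, and CA1 gave 3.58. Among the stress genes TCH2 gave 4.07 and LOX2, listed at 0 in all 72 FAMA cells, 0.96. Without photosynthesis-high cells the difference passed for none of the photosynthesis genes, nor for CA1, TCH2 (3.81, adjusted p 0.0803) or LOX2 (0.25, adjusted p 0.645).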

How the results depend on the processing

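The count of genes for FAMA cells against other cells of the TMMp line was 2128 with no weights and 3209 with genes per cell adjusted for, and ranged between 2386 and 4970 when 1 plate or pool was left out. In the ATML1p line it was 1479 on log2 of the mean TPM and 1282 with the pool as the unit, with a leave-out range of 32 to 2292 (986 without plate ML1_6 and 32 without pool 2). The count of genes whose effect differed between lines was 290 on log2 of the mean TPM, 1013 with quantile normalization, 29 with the pool as the unit and 177 without photosynthesis-high cells, with a leave-out range of 0 to 445. Between FAMA cells of the 2 lines the count was 189 on log2 of the mean TPM, 117 with no weights, 743 with quantile normalization, 527 with genes per cell adjusted for and 0 with the pool as the unit. Its leave-out range was 32 to 508 (89 without plate ML1_6, 118 without ML1_7, 32 without ATML1p pool 2, 135 without TMMp pool 1). With a replicate block for the pool number it was 188, but pools of the lines share only a number, and their deviations correlated at -0.123 in FAMA cells and 0.119 in other cells. The crossed pairing, chosen after seeing the data, gave 1337. Against MUTE or EPF1 cells the count was 1032 on log2 of the mean TPM and 565 with no weights (leave-out range 1052 to 1636), and against MYB60 cells 850 with no weights (1571 to 2254). Where a left-out plate or pool left 1 sample in a line, that sample was assumed to vary like the others. The difference between lines in SSC height, -0.273, was -0.262 with medians over cells (adjusted p 0.0516) and -0.32 to -0.2 in the leave-out fits. The cause of none of these shifts was tested.

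Of the values of single genes under an alternative, 5305 kept direction and side of the threshold, 893 lost the threshold and 14 reversed. SOL1 in the TMMp line was -0.134 with quantile normalization and -0.284 with genes per cell adjusted for. PSAF there was -0.404 with that adjustment and -0.074 on log2 of the mean TPM, and PSBO1 was -0.005. In the ATML1p line leave-out values were -1.467 to 4.891 for STP1, 0.0 to 4.016 for AT2G04570 and -3.327 to 0.6 for RBCS1B, with the reversed end without pool 2. Without photosynthesis-high cells LHCB2.1 was 0.565, RBCS1A 0.102, RBCS1B 0.364 and RBCS3B 0.199 there, and the difference between lines of RBCS2B was -0.023. That of TGG1 was 2.755 on log2 of the mean TPM. Past the threshold in all alternatives stayed 34 of 81 TMMp genes, 2 of 43 ATML1p genes (TGG1 and AT1G22690), 22 of 39 genes against MUTE or EPF1 cells, 16 of 42 against MYB60 cells, 0 of 27 between FAMA cells of the lines, and 0 of 17 genes whose effect differed between lines, of which TGG1 and RBCS2B also reversed. TGG1 and AT1G22690 reached the filter only through FAMA cells, so their staying past the threshold is a description.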
